A study of Homo sapiens with 60 samples.

Results

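Acute phase proteins are plasma proteins, made mostly by hepatocytes, whose blood levels change during infection and injury. Transcripts of 10 such genes were followed: the fibrinogen chains FGA, FGB and FGG, the haptoglobin pair HP and HPR, C-reactive protein (CRP), the serum amyloid A genes SAA1 and SAA2, alpha-1-acid glycoprotein 1 (ORM1) and alpha-1 antitrypsin (SERPINA1). They were taken by symbol from a table of 60675 genes, and all 10 were found in it.

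Messenger RNA was sequenced from HepG2, a hepatocellular carcinoma line, in 60 libraries made after 24 h with an extract or with DMSO. Water extracts of the herbal formulas Sibjeondaebo-tang (SDT) and Palmul-tang (PMT), and ethanol extracts of Poria cocos (Poria), Atractylodis Rhizoma (Atractylodis), Glycyrrhizae Radix (licorice root, Glycyrrhiza), Panax ginseng (Ginseng), Angelicae Gigantis Radix (Angelica) and Paeoniae Radix (Paeonia), were each given at 20 (Low), 100 (Medium) and 500 µg/mL (High). Each dose had 3 libraries, except in PMT with 2 and in Angelica and Paeonia with 1, and the vehicle had 3. No cytokine is named for any group, all groups are the same cell line, and nothing in the labels ties a replicate to a culture of its own, so the p-values may measure technical spread alone. The vehicle is 0.1% DMSO in the sample labels and 2% in the series text, and the DMSO content of treated cultures is not given in the sources used here. Lower doses for toxic extracts are foreseen in the series text, whereas each sample label gives the doses above.

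In the liver, interleukin-6 acts through its receptor and STAT3, and interleukin-1 through NF-kB and C/EBP factors, to raise transcription of positive acute phase genes, with glucocorticoid as a cofactor. C-reactive protein and serum amyloid A belong to the class that needs interleukin-1 as well as interleukin-6, whereas fibrinogen and haptoglobin respond strongly to interleukin-6. Outside inflammation, liver factors such as those of the C/EBP family keep fibrinogen, haptoglobin and alpha-1 antitrypsin expressed in hepatocytes and in hepatoma lines.

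Libraries held 19057226 to 33233237 expected counts, a gene-level estimate of read counts that need not be whole. Levels below are CPM (counts scaled to a common library total) on scaled library sizes, so a change is relative to the other genes of a library, and in a bulk sample fewer expressing cells and less RNA per cell cannot be told apart. Transcripts of the mitochondrial genome took 14.7% to 24.8% of counts in the treated libraries of replicated groups, against 13.4% to 15.2% in vehicle. Hepatocyte markers were abundant, with ALB between 6811 and 11629 CPM over the 60 libraries. Of the markers of other cell types, PTPRC, the leukocyte common antigen, had no count in any library, and COL1A2, DCN and CFTR had none in 59 of the 60. Others on the same lists were detected in vehicle, with LYZ at 1143 to 1286 CPM, SPP1 at 301 to 310.2 CPM, SOX9 at 129.5 to 135 CPM, CD68 at 51.4 to 52.8 CPM, PDGFRB at 5.19 to 6.88 CPM and COL1A1 at 0.272 to 0.410 CPM. All sample titles, those of vehicle included, carry the same label BatchC. A set code in the sample descriptions, of which the labels give no meaning, is the same within each of 4 pairs of extracts (SDT with PMT, Poria with Atractylodis, Glycyrrhiza with Ginseng, Angelica with Paeonia) and another one in vehicle. A difference from vehicle and a difference of set code therefore cannot be told apart, whereas High and Low of an extract share a code.

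Of the 10 genes, 7 had enough counts to be tested, and CRP, SAA1 and SAA2 did not. CRP (ENSG00000132693), a pentraxin that binds bacterial surfaces, had 0 counts in all 60 libraries. SAA1 (ENSG00000173432) and SAA2 (ENSG00000134339), apolipoproteins of the acute phase, summed to 45.49 and 51.18 expected counts over the 60 libraries, and neither had more than 3 in any library. A count of 3, the upper limit that a count of 0 allows, corresponds to 0.162 CPM in the smallest library and 0.0885 CPM in the largest. No difference in these 3 genes was detectable at this depth in any extract, and intervals and limits of this kind cover counting error alone.

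Per length of exon, SERPINA1 was the highest of the 7 measured genes in vehicle, at 2086 ± 23.2 CPM per kb, followed by FGA at 647 ± 22.1, FGG at 555 ± 55.0, ORM1 at 328 ± 11.6, FGB at 221 ± 6.51, HP at 59.8 ± 2.73 and HPR at 14.0 ± 0.926 CPM per kb (SD, n = 3). The lengths are those of all exons of a gene merged, so a gene with long exons that its transcripts rarely use is placed too low. As a ratio, FGA and FGG stood nearest to each other in this order. Together the 10 genes held 1.68% to 1.74% of all counts in vehicle libraries, and SERPINA1 alone held 1.08% to 1.12% of them. In Glycyrrhiza High the share of the 10 genes was 1.20% to 1.25%, the lowest of the replicated groups, against 1.72% to 1.79% in Glycyrrhiza Low.

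**Figure D1:**
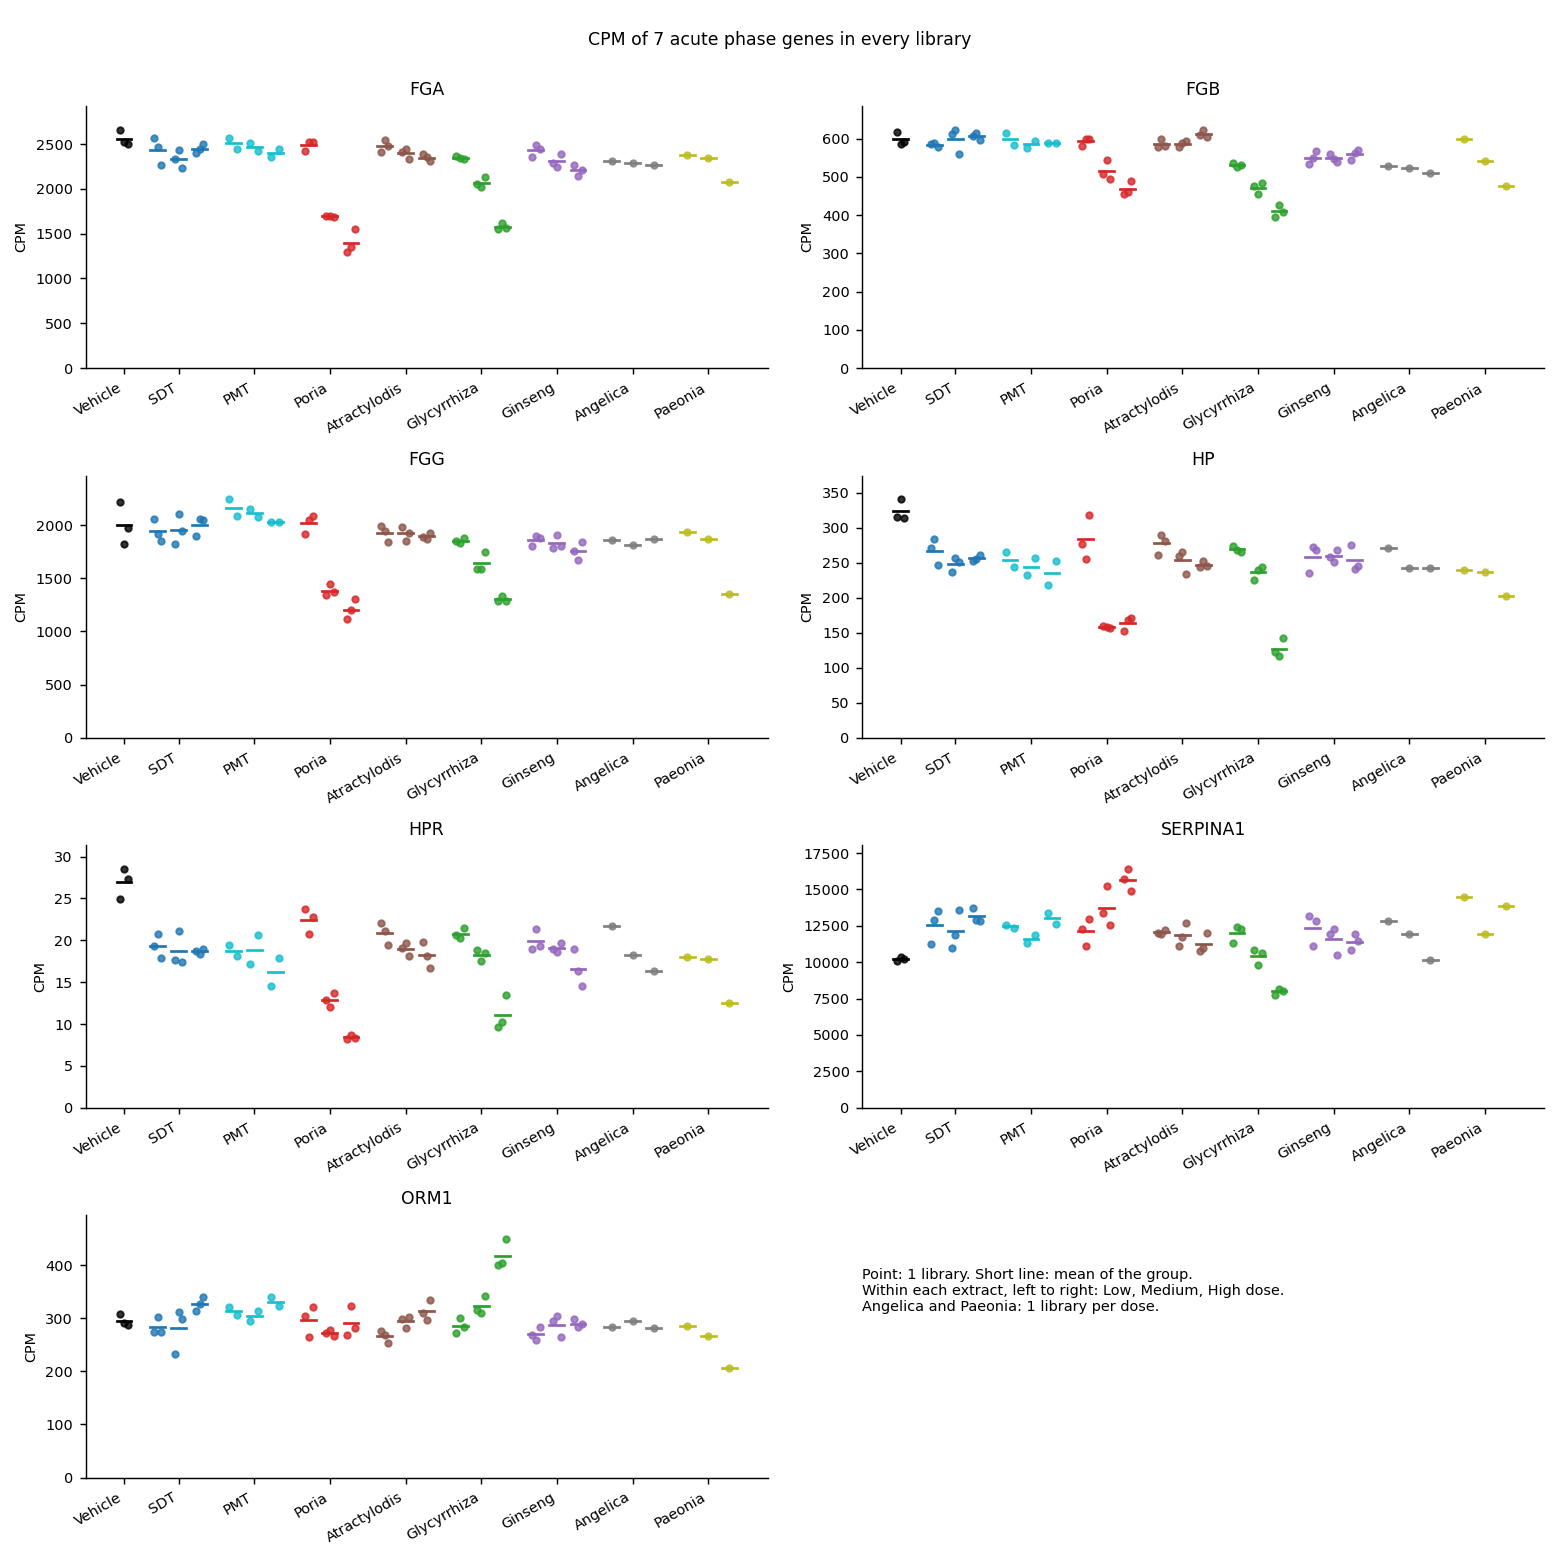
Level in CPM (vertical axes, linear from 0) of the 7 measured genes in each of the 60 libraries (points), with the mean of each group (short lines); groups run from vehicle through the extracts, each at Low, Medium and High dose. FGA, FGG and HPR step down with dose in Poria and Glycyrrhiza, SERPINA1 goes up in Poria and down in Glycyrrhiza, and ORM1 is highest in Glycyrrhiza High at 399.6 to 449 CPM.

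The fibrinogen genes lie side by side on chromosome 4, and their promoters are shown because FGA, FGB and FGG moved together in the results that follow. Each window runs from 250 bases before to 50 bases after a RefSeq transcript start on GRCh38.p14 and is printed 5′ to 3′ on the strand of the gene. FGA is at chr4:154590693-154590992 on the minus strand, FGB at chr4:154562730-154563029 on the plus strand and FGG at chr4:154612607-154612906 on the minus strand. ORM1, at chr9:114322848-114323147 on the plus strand, is added as the gene that moved the other way in Glycyrrhiza. Capitals mark matches, on either strand, to 3 short motifs. They are the palindrome of STAT factors, searched as TTCNNNGAA, the core of the interleukin-6 response element, searched as CTGGGA, and the motif of C/EBP factors, searched as TTGCNNAA.
FGA: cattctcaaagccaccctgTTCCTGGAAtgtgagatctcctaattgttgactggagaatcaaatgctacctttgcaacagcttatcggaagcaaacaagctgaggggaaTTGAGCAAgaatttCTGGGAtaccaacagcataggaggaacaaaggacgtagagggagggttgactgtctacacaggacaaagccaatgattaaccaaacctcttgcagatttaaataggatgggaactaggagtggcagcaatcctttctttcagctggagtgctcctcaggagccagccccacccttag
FGB: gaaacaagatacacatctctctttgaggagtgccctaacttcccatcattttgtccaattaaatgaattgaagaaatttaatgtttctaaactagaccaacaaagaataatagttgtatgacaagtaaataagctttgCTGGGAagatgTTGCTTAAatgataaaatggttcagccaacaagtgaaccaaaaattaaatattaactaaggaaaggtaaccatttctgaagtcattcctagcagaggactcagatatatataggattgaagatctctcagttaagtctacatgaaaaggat
FGG: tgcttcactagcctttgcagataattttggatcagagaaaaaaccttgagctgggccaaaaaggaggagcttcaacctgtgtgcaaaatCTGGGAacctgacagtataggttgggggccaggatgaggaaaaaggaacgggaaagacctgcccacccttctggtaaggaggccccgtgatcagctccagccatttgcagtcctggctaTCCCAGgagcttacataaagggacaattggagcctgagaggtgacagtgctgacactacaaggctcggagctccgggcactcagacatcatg
ORM1: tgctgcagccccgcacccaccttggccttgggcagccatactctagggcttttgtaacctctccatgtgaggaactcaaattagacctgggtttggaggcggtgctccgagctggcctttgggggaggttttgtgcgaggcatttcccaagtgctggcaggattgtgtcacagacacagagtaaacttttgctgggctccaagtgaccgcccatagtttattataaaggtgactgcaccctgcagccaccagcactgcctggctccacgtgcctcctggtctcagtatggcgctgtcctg

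FGA held all 3 motifs, FGB all but that of STAT, FGG held the interleukin-6 core at 2 places, and ORM1 held none of them. Counted from the start, the interleukin-6 core ran from base -127 to base -122 in FGA and from base -112 to base -107 in FGB. No 2 matches overlapped in these windows. Of 35116 RefSeq promoter windows of the same length, 7.66% held the STAT motif, 33.3% the interleukin-6 core and 10.5% the C/EBP motif. Such a match describes the letters of the window and is not a measured binding site. The printed windows were picked by how their genes moved, and a link between motifs and direction of change was not tested. RefSeq windows were matched for 6 of the 10 genes. Of the windows not printed, that of CRP held no match, a later start of FGB held the same matches as the window shown, and of 2 SERPINA1 windows the one at chr14:94388553-94388852 held the interleukin-6 core and the other none.

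High was compared with Low within each extract by the edgeR quasi-likelihood test with Benjamini-Hochberg adjustment over all 16284 genes tested. In Glycyrrhiza, 1 of the 7 measured genes rose and 6 fell, where 28.4% of all genes rose and 27.8% fell. In Poria, 1 rose and 5 fell, against 20.0% and 18.4% of all genes. In Atractylodis, ORM1 alone passed the test, upward, where 3.39% of all genes rose and 3.02% fell. No gene of the 7 passed the test in Ginseng (2.92% of all genes higher, 2.87% lower), SDT (0.522% higher, 0.522% lower) or PMT (0.197% higher, 0.319% lower). Of these, 2 genes in Ginseng, 1 in SDT and 0 in PMT had an unadjusted p under 0.05, and DESeq2 called 1, 0 and 0. The median log2 change of the 7 genes was -0.58 in Glycyrrhiza and -0.74 in Poria, beside 0.01 and -0.00 over all genes tested.

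**Figure D2:**
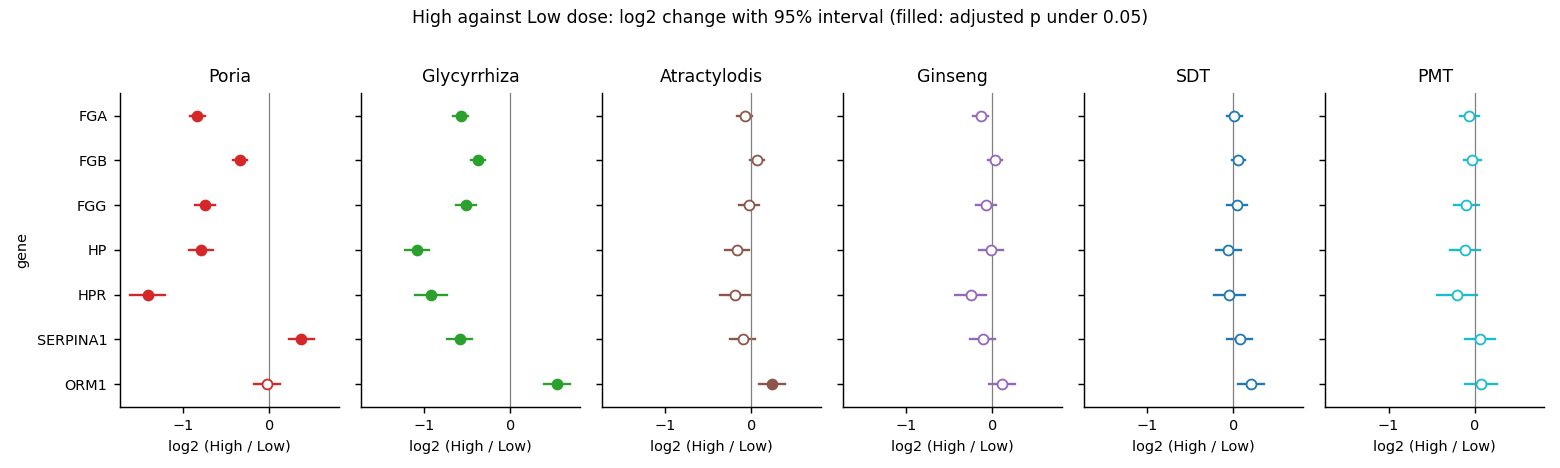
Log2 change of High over Low dose (horizontal axes) for 7 genes in 6 extracts, with 95% intervals from the edgeR fit; filled points passed the adjusted threshold of 0.05. In Poria 6 points are filled and in Glycyrrhiza 7, with HPR in Poria the farthest left at -1.41, and SERPINA1 and ORM1 lie on different sides of 0 in those extracts.

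FGA (ENSG00000171560, chr4:154583126-154590766), FGB (ENSG00000171564, chr4:154562956-154571086) and FGG (ENSG00000171557, chr4:154604134-154612967; GRCh38, as for the other genes) encode the alpha, beta and gamma chains of fibrinogen, which thrombin turns into the fibrin of a clot. FGA fell by 0.84 in Poria and by 0.58 in Glycyrrhiza on the log2 scale at High against Low. FGG fell by 0.74 and by 0.51, and FGB by 0.34 and by 0.38, in the same extracts. In none of the other 4 extracts did a chain pass the test of High against Low.

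FGA had 1294, 1348 and 1547 CPM in Poria High, against 2422, 2522 and 2526 CPM in Poria Low. The High libraries all lay below the Low ones, with replicate 3 nearest to them, and the log2 change was -0.84 ± 0.04 (SE, adjusted p = 7.72e-20, edgeR). In Glycyrrhiza, FGA had 1549, 1613 and 1557 CPM at High, against 2362, 2343 and 2328 CPM at Low. These groups did not overlap either, and the change was -0.58 ± 0.04 (SE, adjusted p = 2.80e-15, edgeR).

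FGG, the gamma chain, had 1114, 1198 and 1301 CPM in Poria High, against 1919.6, 2045 and 2087 CPM in Poria Low. Its change was -0.74 ± 0.06 (SE, adjusted p = 1.83e-14, edgeR), with no overlap of the groups. In Glycyrrhiza it had 1288, 1332 and 1285 CPM at High, against 1854, 1829 and 1878 CPM at Low, a log2 change of -0.51 ± 0.06 (SE, adjusted p = 2.05e-10, edgeR). The groups were apart here too, and the 3 High libraries lay close together.

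FGB, the beta chain and the lowest of the 3 per length, had the smallest change of the 3 in both Poria and Glycyrrhiza. It had 456, 459 and 489 CPM in Poria High, against 579.6, 598 and 600.1 CPM in Poria Low (log2 change -0.34 ± 0.04 SE, adjusted p = 1.46e-09, edgeR). In Glycyrrhiza it had 394, 427 and 407 CPM at High, against 536, 525 and 530.2 CPM at Low (log2 change -0.38 ± 0.04 SE, adjusted p = 3.03e-11, edgeR). High and Low did not overlap in either extract. The share of FGB in the summed CPM of the 3 chains was 15.3% ± 0.627 in Poria High and 11.6% ± 0.138 in Poria Low (SD, n = 3 each), and 12.5% ± 0.236 in Glycyrrhiza High and 11.2% ± 0.0540 in Glycyrrhiza Low (SD, n = 3 each). In vehicle it was 11.6% ± 0.316 (SD, n = 3).

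HP (ENSG00000257017, chr16:72054592-72061055) encodes haptoglobin, which captures free hemoglobin, and HPR (ENSG00000261701, chr16:72063148-72077246) the haptoglobin-related protein of the trypanosome lytic particles. HP fell by 0.79 in Poria and by 1.08 in Glycyrrhiza on the log2 scale at High against Low. HPR fell by 1.41 in Poria, the largest change of the 7 genes over the 6 replicated extracts, and by 0.93 in Glycyrrhiza. The genes are near-identical in places: 13.6% of the 100-base words of HPR transcripts also occur in HP, and 4.97% of those of HP in HPR, so that the estimated counts may share reads.

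HP had 152, 168 and 171 CPM in Poria High, against 276, 256 and 318 CPM in Poria Low. All High libraries lay below all Low ones (log2 change -0.79 ± 0.07 SE, adjusted p = 1.05e-12, edgeR). In Glycyrrhiza it had 123, 116 and 143 CPM at High, against 274, 268 and 265 CPM at Low (log2 change -1.08 ± 0.07 SE, adjusted p = 9.72e-18, edgeR). Here too the groups were apart, and the 3 Glycyrrhiza High libraries were the lowest for HP of all 60.

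HPR had 8.25, 8.70 and 8.36 CPM in Poria High, against 23.7, 20.8 and 22.8 CPM in Poria Low (log2 change -1.41 ± 0.10 SE, adjusted p = 1.84e-15, edgeR). In Glycyrrhiza it had 9.59, 10.2 and 13.4 CPM at High, against 20.6, 20.3 and 21.4 CPM at Low (log2 change -0.93 ± 0.09 SE, adjusted p = 8.15e-12, edgeR). High stood below Low without overlap in both extracts, and replicate 3 of Glycyrrhiza High was the nearest to Low. With the counts of HP and HPR summed into a single gene, the High against Low change was -0.83 in Poria (adjusted p = 2.38e-13, edgeR) and -1.07 in Glycyrrhiza (adjusted p = 1.21e-17, edgeR).

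Over the doses of Poria, the mean of HP levelled off after Medium and that of HPR did not. HP averaged 283 ± 31.7, 158 ± 1.38 and 164 ± 9.91 CPM at Low, Medium and High, beside 323 ± 14.8 CPM in vehicle (SD, n = 3 each), so that its Medium and High libraries overlapped. HPR averaged 22.4 ± 1.52, 12.9 ± 0.830 and 8.44 ± 0.234 CPM at Low, Medium and High of Poria, beside 26.9 ± 1.78 CPM in vehicle, and its 3 doses did not overlap. HPR made up 4.91% ± 0.230 of the sum of both genes in Poria High, against 7.37% ± 0.620 in Poria Low and 7.69% ± 0.327 in vehicle (SD, n = 3 each). In Glycyrrhiza High the share was 7.97% ± 0.678, against 7.17% ± 0.273 in Glycyrrhiza Low (SD, n = 3 each), and these groups overlapped. The shares were not tested.

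**Figure D3:**
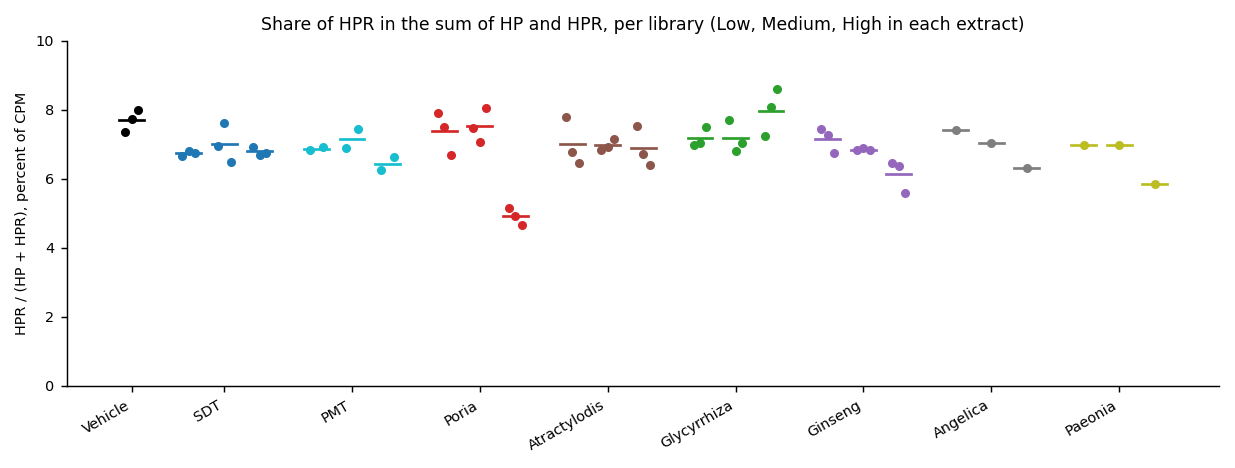
HPR as a percentage of the summed CPM of HP and HPR (vertical axis, from 0) in each of the 60 libraries (points), with group means (short lines), at Low, Medium and High dose from left to right within each extract. Poria High lies at 4.68% to 5.14%, below each of the other libraries, whereas vehicle lies at 7.34% to 8.00%.

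SERPINA1 (ENSG00000197249, chr14:94376747-94390693) encodes alpha-1 antitrypsin, the plasma inhibitor of neutrophil elastase. It moved in opposite directions in Poria and Glycyrrhiza, the 2 extracts in which fibrinogen chains passed the test of High against Low. It had 15717, 16383 and 14909.5 CPM in Poria High, against 12280.5, 11101.5 and 12948 CPM in Poria Low (log2 change 0.37 ± 0.07 SE, adjusted p = 4.71e-05, edgeR). In Glycyrrhiza it had 7776, 8146 and 8040.4 CPM at High, against 11302, 12428 and 12264 CPM at Low (log2 change -0.59 ± 0.07 SE, adjusted p = 1.85e-09, edgeR). High lay above Low in each Poria library and below Low in each Glycyrrhiza library.

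ORM1 (ENSG00000229314, chr9:114323056-114326475) encodes an abundant plasma glycoprotein that binds basic drugs, and it rose in Glycyrrhiza while the other 6 genes fell. It had 399.6, 404 and 449 CPM in Glycyrrhiza High, against 272, 300.2 and 284 CPM in Glycyrrhiza Low (log2 change 0.55 ± 0.07 SE, adjusted p = 2.28e-08, edgeR). The High libraries were all above the Low ones. In Poria, ORM1 had 269, 323 and 281 CPM at High, against 305, 264 and 320.2 CPM at Low, and the groups overlapped (log2 change -0.03, 95% interval -0.18 to 0.12, adjusted p = 0.809, edgeR).

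ORM1 also passed the test in Atractylodis, with 309, 297 and 334 CPM at High, against 276, 268 and 253 CPM at Low (log2 change 0.24 ± 0.07 SE, adjusted p = 0.0433, edgeR). High lay above Low in all 3 libraries, and the call was lost in 4 of the 6 fits that left out a library: without High replicate 1, High replicate 3, Low replicate 2 or Low replicate 3 (adjusted p = 0.0764 to 0.210, edgeR). ORM1 shares 29.6% of its 100-base words with ORM2, its neighbour and near copy. ORM2 rose as well in Glycyrrhiza High against Low (log2 change 0.28 ± 0.06 SE, adjusted p = 3.30e-05, edgeR). The pair was not tested as a single gene. ORM1 made up 67.1% ± 1.07 of the summed CPM of the pair in Glycyrrhiza High, 62.9% ± 0.280 in Glycyrrhiza Low and 62.2% ± 0.440 in vehicle (SD, n = 3 each).

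The dose responses of 4 pairs of extracts were set against each other by testing the difference of their High against Low changes. Between Glycyrrhiza and Poria, 6 of 7 genes differed, where 45.6% of all genes did. SERPINA1 differed most, by -0.96 log2 units (95% interval -1.17 to -0.75, adjusted p = 1.01e-10, edgeR), followed by ORM1 at 0.57 (0.36 to 0.79, adjusted p = 1.42e-05, edgeR). HPR, at 0.49 (0.20 to 0.77), and FGA, at 0.26 (0.13 to 0.38), fell less in Glycyrrhiza (adjusted p = 0.00376 and 0.000762, edgeR).

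FGG and HP passed the same test in opposite directions, FGG at 0.23 (adjusted p = 0.0178, edgeR) and HP at -0.29 (adjusted p = 0.0142, edgeR). FGG lost the call without Poria High replicate 1 (0.18, adjusted p = 0.0689, edgeR), and HP lost it without Poria Low replicate 2 (-0.22, adjusted p = 0.0687, edgeR) or Glycyrrhiza High replicate 2 (-0.23, adjusted p = 0.0682, edgeR). FGB did not pass, and its difference of -0.03 had a 95% interval of -0.15 to 0.08.

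Poria and Atractylodis, which share a set code, differed in 6 of 7 genes, against 19% of all genes, with HPR at -1.22, FGA at -0.76, FGG at -0.72, HP at -0.62, FGB at -0.40 and SERPINA1 at 0.47 log2 units. ORM1 did not pass between them, at -0.27 with a 95% interval of -0.48 to -0.05 (adjusted p = 0.0717, edgeR). Glycyrrhiza and Ginseng, which also share a code, differed in all 7 genes, against 45.4% of all genes. HP differed by -1.06, HPR by -0.68, SERPINA1 by -0.48, FGA and FGG each by -0.44, FGB by -0.40 and ORM1 by 0.44. PMT and SDT, which share most of their herbs, differed in 0 of 7 genes by edgeR, with 0 at an unadjusted p under 0.05, 0 by DESeq2 and 0% of all genes, and the widest interval, that of HPR, ran from -0.46 to 0.14.

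Against vehicle, HP and HPR were lower in nearly each extract and dose, and SERPINA1 was higher at Low in all 6 replicated extracts. These comparisons share the same 3 vehicle libraries, so that their likeness is no separate evidence, and in them set code and treatment cannot be told apart. HPR was called lower in 18 of 18 comparisons, with log2 changes between -1.67 and -0.25. In a fit of the compared groups alone, the calls of HPR (adjusted p = 0.0703, edgeR) and SERPINA1 (adjusted p = 0.0537, edgeR) at Poria Low were lost. HP was called lower in 17 of 18, between -1.34 and -0.18, and missed the threshold in Poria Low (-0.18, adjusted p = 0.0583, edgeR). SERPINA1 was called higher in 13 and lower in 1, in Glycyrrhiza High at -0.35 (adjusted p = 4.50e-05, edgeR).

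In vehicle, HP had 315, 340.3 and 314 CPM and HPR had 25.0, 28.5 and 27.3 CPM. All treated libraries lay below these for HPR in each of the 18 comparisons, and for HP in 17 of them. SERPINA1 had 10109, 10336 and 10235 CPM in vehicle, and the Low libraries of all 6 extracts lay above that range, the lowest at 11092 CPM in a Ginseng library, with log2 changes of 0.24 to 0.30. The share of all genes whose libraries lie apart from vehicle in this way was not computed. Between 19.2% and 61.3% of all genes were called in these 18 comparisons. ORM1 was called higher in 1 of 18 comparisons, in Glycyrrhiza High at 0.50 (adjusted p = 1.16e-07, edgeR).

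The fibrinogen chains differed from vehicle mainly at the upper doses of Poria and Glycyrrhiza. FGA was called lower in 9 of 18 comparisons, FGB in 7 and FGG in 5, and no chain was called higher. FGA was -0.03, -0.59 and -0.87 at Poria Low, Medium and High, and -0.12, -0.30 and -0.70 at Glycyrrhiza Low, Medium and High, in log2 units. In Ginseng it was -0.07, -0.14 and -0.21 over the same doses, where the Low value did not pass the test. The mitochondrial share of counts was above the highest vehicle library in each library of these groups except 1 of Ginseng Medium and 1 of Glycyrrhiza Low, and with mitochondrial genes left out HP and HPR were called lower in all 18 comparisons.

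Between 2 and 7 of the 7 genes were called in each comparison with vehicle. The numbers called were 3, 4 and 3 at SDT Low, Medium and High, where 35.9%, 36.0% and 34.2% of all genes were called in either direction. They were 3, 2 and 3 at PMT Low, Medium and High (31.1%, 29.7% and 29.2% of all genes), and 2, 6 and 6 at Poria Low, Medium and High (19.2%, 38.6% and 51.1%). Atractylodis had 3 at each dose (26.9%, 28.3% and 34.0% at Low, Medium and High), Glycyrrhiza 5, 5 and 7 (29.7%, 34.9% and 61.3%) and Ginseng 4, 5 and 4 (33.4%, 29.9% and 36.3%).

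Some of these counts rested on single libraries. The SDT Medium count was 2 without its replicate 3. The Poria Low count was 1 without its replicate 2, vehicle replicate 2 or vehicle replicate 3. The Glycyrrhiza Low count was 3 without its replicate 2, and the Ginseng Medium count was 2 without vehicle replicate 1 and 3 without its own replicate 2. Of single calls, FGA at Glycyrrhiza Low was lost without vehicle replicate 1 or any replicate of its own group, FGA at SDT Medium without vehicle replicate 1 or its own replicate 1 or 3, and FGA at Atractylodis High without vehicle replicate 1 or its own replicate 2 or 3 (adjusted p = 0.0549 to 0.141, edgeR). SERPINA1 at Ginseng Medium was lost in 5 of its 6 such fits, the exception being the fit without its own replicate 3, and SERPINA1 at Atractylodis Medium in 3, without vehicle replicate 1 or 2 or its own replicate 3 (adjusted p = 0.0504 to 0.226, edgeR). HPR at Poria Low was lost in the 3 fits named above, and HP at Atractylodis Low without vehicle replicate 2 or its own replicate 1 (adjusted p = 0.0689 to 0.165, edgeR). SERPINA1 was lost at SDT Medium and at Poria Low without replicate 3 of the treated group, and at Glycyrrhiza Low without replicate 2 of it (adjusted p = 0.0567 to 0.0869, edgeR). In Ginseng, FGG at High, FGA and FGB at Medium and FGB at Low were each lost in 2 of 6 such fits, in each case without vehicle replicate 1 and without 1 treated library, which was High replicate 2, Medium replicate 2, Medium replicate 3 and Low replicate 1 in that order. The calls of Poria and Glycyrrhiza at High against vehicle, and at High against Low, were each kept in every fit that left out a library.

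**Figure D4:**
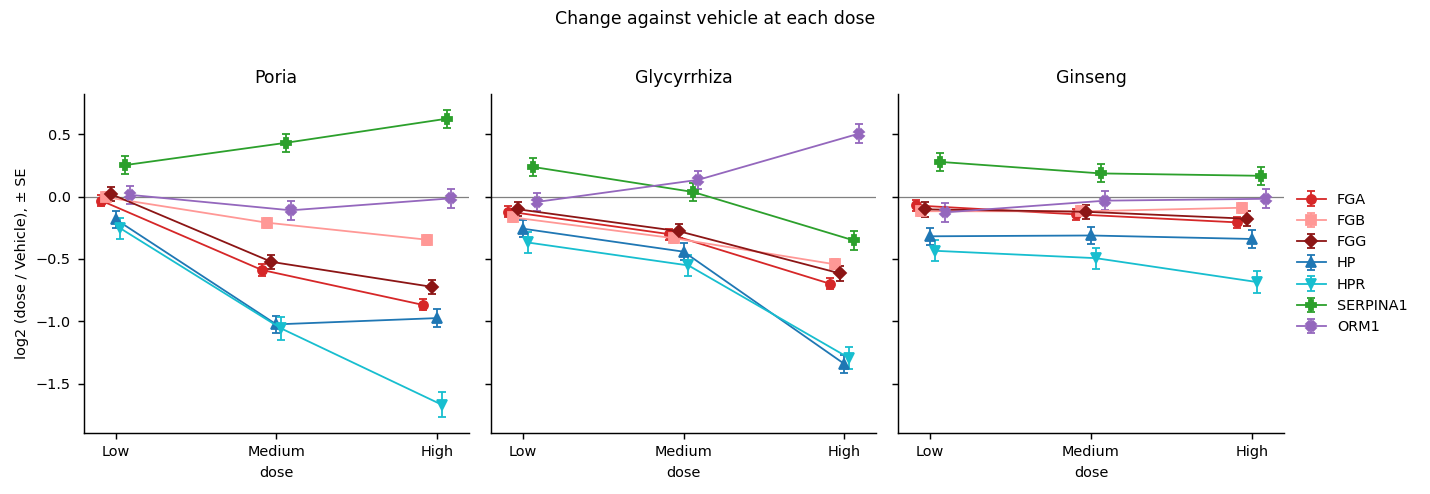
Log2 change against vehicle (vertical axis, with SE bars) at Low, Medium and High dose of Poria, Glycyrrhiza and Ginseng for 7 genes; vehicle is the grey line at 0. In Poria HP levels off between Medium (-1.02) and High (-0.97) while HPR goes on to -1.67, and in Ginseng FGA ends at -0.21.

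Angelica and Paeonia had 1 library per dose, so that their values have no replicate check and no test. Paeonia High was the lowest of the 6 libraries for FGG, with 1349 CPM, against 1936 and 1867 CPM at Paeonia Low and Medium. In the same library ORM1 had 205 CPM, the lowest of all 60 libraries, and HPR had 12.6 CPM. FGA had 2073 CPM and FGB 476 CPM in Paeonia High, against vehicle means of 2561 and 598 CPM. In Angelica the log2 ratio of High to Low lay between -0.41, for HPR, and 0.01, for FGG, over the 7 genes.

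Other acute phase genes were read from lists made for this description. Of 22 tested genes on a broad list made for the positive acute phase, 6 rose and 6 fell in Poria High against Low. In Glycyrrhiza 11 rose and 9 fell. The list also holds SAA4, A2M and PROCR, which are not established positive acute phase genes in humans. In Glycyrrhiza SAA4 (0.62) and PROCR (0.88) count among the rises and A2M (-0.42) among the falls, and in Poria PROCR counts among the rises. Over all genes 20.0% rose and 18.4% fell in Poria, and 28.4% rose and 27.8% fell in Glycyrrhiza. In Poria, TIMP1 (a metalloproteinase inhibitor, 1.47 in log2 units) and PROCR (the protein C receptor, 0.96) were among the genes that rose, and HAMP (the iron hormone hepcidin, -2.75), HPX (hemopexin, which binds heme, -0.73) and CFB (complement factor B, -0.38) fell the most. In Glycyrrhiza, HAMP (1.93) and LCN2 (the siderophore binder lipocalin 2, 1.53) were among the genes that rose, and MBL2 (mannose-binding lectin, -1.25), HPX (-1.17) and CP (the copper carrier ceruloplasmin, -0.97) fell the most. The median log2 change of the list was -0.04 in Poria and 0.13 in Glycyrrhiza.

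In the other extracts fewer genes of this list passed. SDT had 1 rise and 2 falls, where 0.522% of all genes rose and 0.522% fell. PMT had 1 rise and 2 falls, where 0.197% of all genes rose and 0.319% fell. In both extracts MBL2 rose (0.51 in SDT, 0.53 in PMT) and HAMP fell (-3.02 in SDT, -2.93 in PMT). Atractylodis had 5 falls, where 3.02% of all genes fell, and Ginseng 7, where 2.87% fell, with A2M among the falls of both. CFB fell in both, by 0.32 in Atractylodis and by 0.36 in Ginseng, and so did ITIH3, an inter-alpha-trypsin inhibitor chain, by 0.31 and by 0.48.

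Of 13 tested genes that fall in the acute phase, 2 rose and 9 fell in Poria High against Low, and 2 rose and 9 fell in Glycyrrhiza, beside the same shares of all genes (20.0% and 18.4% in Poria, 28.4% and 27.8% in Glycyrrhiza). SERPINA7, the thyroxine-binding globulin, fell by 2.16 in Glycyrrhiza and by 0.63 in Poria, and GC, the vitamin D carrier, by 1.04 and by 1.05. TTR, transthyretin, fell by 0.71 in Glycyrrhiza and rose by 0.23 in Poria, and APOA2, an apolipoprotein of high density lipoprotein, rose by 0.44 and by 0.28. The medians of the list were -0.39 in Glycyrrhiza and -0.23 in Poria. In Ginseng 6 of the 13 fell (2.87% of all genes), in Atractylodis 4 (3.02%) and in SDT 1 (0.522%). In PMT edgeR called 0 of the 13, with 5 at an unadjusted p under 0.05 and 1 called by DESeq2.

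Among 37 genes of interleukin-6, interleukin-1 and glucocorticoid signalling, 16 rose and 7 fell in Poria High against Low, and 14 rose and 17 fell in Glycyrrhiza. Of all genes 20.0% rose and 18.4% fell in Poria, near the share of the list that fell there, and 28.4% rose and 27.8% fell in Glycyrrhiza. IL6R, the ligand-binding receptor chain for interleukin-6, rose by 1.13 in Poria and by 2.36 in Glycyrrhiza. IL6ST, the shared signalling chain, was at -0.01 in Poria (adjusted p = 0.939, edgeR) and rose by 0.42 in Glycyrrhiza. STAT3 was at -0.07 in Poria (adjusted p = 0.143, edgeR) and fell by 0.12 in Glycyrrhiza. SOCS3, a feedback inhibitor induced by STAT3, was at -0.02 in Poria (adjusted p = 0.980, edgeR) and rose by 1.01 in Glycyrrhiza with a wide SE of 0.42 (adjusted p = 0.0403, edgeR).

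Among the transcription factors of this list, CEBPA, a C/EBP factor of mature hepatocytes, fell by 1.13 in Poria. CEBPB rose by 1.43 in Glycyrrhiza and was at -0.13 in Poria (adjusted p = 0.519, edgeR). CEBPD rose by 0.44 in Poria and was at -0.10 in Glycyrrhiza (adjusted p = 0.498, edgeR). HNF4A was at 0.09 in Poria (adjusted p = 0.0598, edgeR) and rose by 0.38 in Glycyrrhiza. NR3C1, the glucocorticoid receptor, fell by 0.40 in Poria and rose by 0.53 in Glycyrrhiza, where TSC22D3, a glucocorticoid-induced gene, rose by 2.39. CEBPA and TSC22D3 were named for a large change in the extract given, and their values in the other extract are not given here. The differences between extracts were not tested for the genes of these lists.

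**Figure D5:**
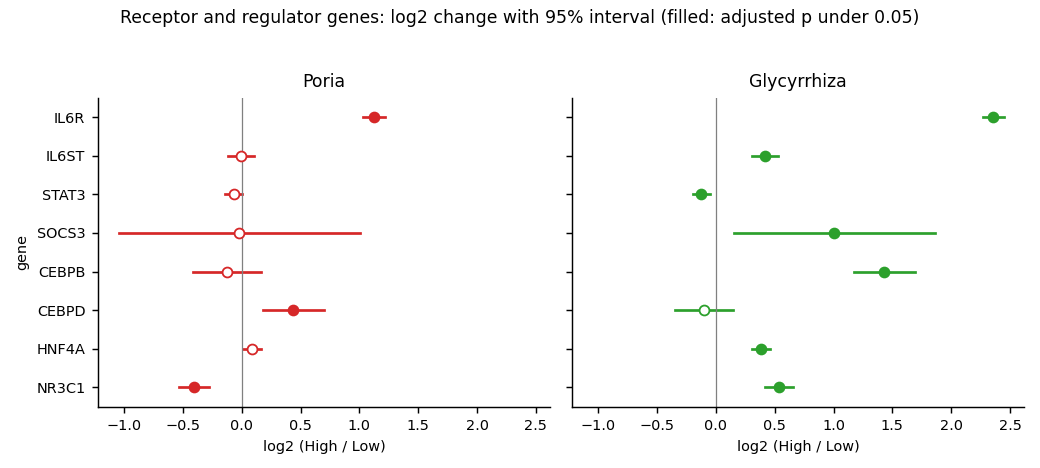
Log2 change of High over Low dose (horizontal axes) with 95% intervals for 8 receptor and regulator genes in Poria and Glycyrrhiza; filled points passed the adjusted threshold of 0.05. IL6R is the farthest right in Glycyrrhiza at 2.36, and NR3C1 lies at -0.40 in Poria and 0.53 in Glycyrrhiza.

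Summed levels of hepatocyte markers (8 genes) were 52042 to 55363 CPM in Poria High, against 47337 to 52522 CPM in Poria Low, and 36738 to 39243 CPM in Glycyrrhiza High, against 47933 to 49160 CPM in Glycyrrhiza Low. APOB (14838 to 16264 CPM), AFP (13045 to 13386 CPM) and ALB (10844 to 11629 CPM) were the highest of them in vehicle. The list was not uniform in Poria High against Low. There ALB (-0.23 in log2 units), TF (-0.16) and APOA1 (-0.29) were called lower, TTR (0.23) was called higher, and AHSG (0.13) and HNF4A were not called. In Glycyrrhiza High against Low, ALB (-0.39), TF (-0.62), APOA1 (-0.51), TTR (-0.71) and AHSG (-0.15) were called lower, whereas HNF4A rose. The changes of APOB and AFP, the highest of the list in vehicle, are not given here, so the members behind the sums are not fully shown. The 4 biliary markers summed to 901 to 1126 CPM in Poria High, against 485 to 535 CPM in Poria Low, all but a trace of it SPP1 and SOX9, which HepG2 expressed in each library, while KRT7 and CFTR were at or near 0. The 6 leukocyte markers summed to 1879 to 1978 CPM in Poria High, against 1212.5 to 1328 CPM in Poria Low, nearly all LYZ and CD68, with PTPRC at 0. In Glycyrrhiza both lists were lower at High, the leukocyte list at 977 to 1054 CPM in High, against 1265 to 1366 CPM in Low, and the biliary list at 599 to 614 CPM in High, against 644 to 685 CPM in Low. The 6 fibroblast markers, mostly PDGFRB, summed to 10.9 to 11.9 CPM in Poria High, against 6.30 to 9.07 CPM in Poria Low, and to 2.44 to 2.92 CPM in Glycyrrhiza High, against 6.16 to 6.67 CPM in Glycyrrhiza Low. The 4 endothelial markers summed to 1.79 to 2.04 CPM in Poria High, against 2.20 to 2.64 CPM in Poria Low, and to 1.66 to 2.24 CPM in Glycyrrhiza High, against 2.63 to 2.98 CPM in Glycyrrhiza Low. High and Low did not overlap in any of these sums except that of hepatocyte markers in Poria. The share of all genes, or of other sums of genes, that lie apart in this way was not computed. Of all genes, 20.0% rose and 18.4% fell in Poria High against Low, and 28.4% rose and 27.8% fell in Glycyrrhiza. The part of these markers in the changes of the acute phase genes was not tested.

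Over the 19 replicated group means the fibrinogen chains and the haptoglobin pair varied together, with lower values for ORM1 and SERPINA1. Pearson's r of log2 CPM was 0.98 between FGA and FGG, 0.87 between FGB and FGG, 0.85 between FGA and FGB and 0.91 between HP and HPR. FGA had r of 0.91 with HP, -0.30 with ORM1 and -0.03 with SERPINA1, and ORM1 and SERPINA1 had -0.62 with each other. These values are descriptions over groups that share scaling and in part set code.

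Of 16277 other genes, the 5 most like the mean of the fibrinogen chains over those 19 groups were ETNK2 (r = 0.96), DIO1 (0.96), PDLIM1 (0.96), PSMB9 (0.96) and ANXA9 (0.96). Their log2 CPM at High minus Low lay between -1.06, for DIO1, and -0.57, for PDLIM1, in Poria. In Glycyrrhiza it lay between -0.85, for PSMB9, and -0.51, for ANXA9. The 5 genes were chosen by likeness to fibrinogen over groups that include these, so a fall at High follows from the choice.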

How the data were processed

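Messenger RNA libraries were directional and read as pairs on an MGI sequencer, per the labels. The submitters' processing notes name FastQC 0.11.9, Trim Galore 0.6.5, STAR 2.7.3a, RSEM 1.3.3 and GRCh38, while which annotation release was used, and with which strand option, is not given in the sources used here. The deposited table holds expected counts per gene, as the authors made them with no further scaling, and 23.4% of its nonzero values are not whole. Its columns were matched to samples by the code in the sample descriptions, and 210 columns outside the samples described here were not used. Symbols, positions and exon lengths came from GENCODE release 29, promoter windows from RefSeq.

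Expected counts were rounded. After a filter on low counts and TMM scaling, genes were tested with edgeR 4.0.16 (R 4.3.3) by its quasi-likelihood test in a single fit of 54 libraries in 19 groups, with Benjamini-Hochberg adjustment over 16284 genes and a threshold of 0.05. The common dispersion corresponds to a coefficient of variation of 5.63%. The scripts were tested on simulated data. Angelica and Paeonia were not tested. Shared words are 100-base runs found in transcripts of both genes.

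The members and the gene lists were chosen with earlier results of these data known. Besides the 10 genes, up to 3 called genes with the largest change in each direction were named per list and extract, with 8 regulators and the 5 nearest genes by correlation named whatever their values; 2 genes that the rule also names are not reported here. Alternatives were DESeq2 1.42.0, RLE size factors, no filter, a fit of the compared groups alone, mitochondrial genes left out, paralogues summed, a replicate block and each library left out. The paralogues summed were HP with HPR and SAA1 with SAA2, whereas ORM1 and ORM2 were not tested as a single gene.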

Additional observations from a re-analysis of the deposited data

Results flagged for a closer look

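The dose responses of 2 extracts, each the log2 change of High over Low, differed beyond the adjusted threshold of the edgeR interaction test in 19 of the 28 tests on the 7 measured genes. Of all genes, 45.6% differed between Glycyrrhiza and Poria, 19% between Poria and Atractylodis, 45.4% between Glycyrrhiza and Ginseng and 0% between PMT and SDT. Glycyrrhiza minus Poria shares Poria with Poria minus Atractylodis and Glycyrrhiza with Glycyrrhiza minus Ginseng, so that its differences are not separate findings from theirs. Those latter pairs have no extract in common, and PMT minus SDT shares none with any other pair.

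Glycyrrhiza minus Poria gave 0.26 for FGA, 0.23 for FGG, -0.29 for HP, 0.49 for HPR, 0.57 for ORM1 and -0.96 for SERPINA1. Of these, SERPINA1 changed by -0.59 in Glycyrrhiza and by 0.37 in Poria, a difference of direction, while HP fell further in Glycyrrhiza and FGA, FGG and HPR fell further in Poria.

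Poria minus Atractylodis gave -0.76 for FGA, -0.40 for FGB, -0.72 for FGG, -0.62 for HP, -1.22 for HPR and 0.47 for SERPINA1. Glycyrrhiza minus Ginseng gave -0.44 for FGA, -0.40 for FGB, -0.44 for FGG, -1.06 for HP, -0.68 for HPR, 0.44 for ORM1 and -0.48 for SERPINA1.

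No group had the 4 libraries that a test for a single distant library needs.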

How the results depend on the processing

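Numbers of genes called kept within 1.5 times in all 28 comparisons under RLE size factors and under the replicate block, where Poria High against Low kept 6 calls and Glycyrrhiza 7. No called value reversed in any alternative. DESeq2 called 1 gene in Ginseng High against Low, as did the fits without the low-count filter or without mitochondrial genes, where the main number was 0. Without the filter SDT High against Low had 1 call, where the main number was 0. With only the groups compared in the fit, Poria Low against vehicle had 0 calls, where the main number was 2, and Atractylodis High against Low had 0, where it was 1. With paralogues summed PMT Medium against vehicle had 1 call, where 2 genes had become 1. With a library left out in turn, the number ranged from 2 to 4 in SDT Medium, 1 to 2 in Poria Low, 3 to 6 in Glycyrrhiza Low and 2 to 5 in Ginseng Medium, each against vehicle, and from 0 to 1 in High against Low of Atractylodis and of Ginseng. The cause of these shifts was not tested.

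Of the single results, HP at Poria Low against vehicle passed by DESeq2 (adjusted p = 0.0376) and with mitochondrial genes left out (adjusted p = 0.0469, edgeR). HP between Glycyrrhiza and Poria missed the threshold with only those groups in the fit (adjusted p = 0.0588, edgeR). Correlations between libraries of the same replicate number lay between -0.148 and 0.137, and every library correlated best with its own number in 2 of 20 comparisons with 3 pairs, so that the replicate block is no pairing known from the design. Depth limits CRP, SAA1 and SAA2, and 1 library a dose limits Angelica and Paeonia.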
